A study of Xenopus tropicalis with 12 samples.

Results

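The Hox cluster genes of Xenopus tropicalis were examined in RNA-seq of dissected early gastrula embryos. The members are genes that the study's curated catalog of transcription factors (TFs) names hox followed by cluster letter a, b, c or d and a number, and 37 of the 38 such genes, each with a gene model, were analysed here. They fall into 10 genes of cluster a, 9 of cluster b, 10 of cluster c and 8 of cluster d, among 1197 catalogued TFs with a gene model and 26550 gene models in all. Embryos were cut into 5 regions: animal cap (AC, enriched for ectoderm), dorsal, lateral and ventral marginal zones (DMZ, LMZ and VMZ, enriched for mesoderm) and vegetal mass (VEG, enriched for endoderm), and whole stage-matched sibling embryos formed a further group. Explants were pooled for each library, the dissection was done on 2 clutches, and each group has 2 libraries. Replicate numbers 1 and 2 in the sample titles were taken here as clutches 1 and 2, which the titles do not state. No strain is named in the labels and no embryo was treated, and neighbouring tissue may be carried over at each knife cut. Total expected counts ran between 27126407 and 29166548 in the libraries of clutch 1 and between 14634582 and 26335531 in those of clutch 2. Of 11 markers of region, each read in both clutches, 20 of the 22 readings were highest in the region they mark. The exceptions were foxi2 in both clutches, which was set as an AC marker but peaked in VMZ. It had 157.6 and 276.2 TPM in AC and 164.7 and 280.4 TPM in VMZ, and the study describes it as enriched in both.

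Hox genes encode homeodomain TFs that give cells their address along the head-to-tail axis. In vertebrates they sit in clusters, and genes at the same place in different clusters descend from 1 ancestral gene and form a paralogue group. Genes with low paralogue numbers lie at the 3′ end of a cluster and are in general switched on first and expressed furthest forward, while those with high numbers come on later and further back. Retinoic acid, Wnt and FGF signals and the Cdx homeodomain proteins are known inputs to the first wave of Hox expression at gastrulation, and Pbx, Meis and Pknox proteins bind DNA together with Hox proteins.

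Very few Hox genes were on at this stage. A gene was counted as on in a group where its mean was at least 1 TPM, a level corrected for transcript length and library depth, and each of the 2 libraries held more than 3 expected counts, and as detected where each library held more than 3. By this rule 3 of the 37 Hox genes were on in any group: hoxa7, hoxd1 and hoxd9. That share, 8.11%, stood beside 69.8% of the 1197 TFs and 54% of all gene models. Cluster a held 1 of the 3 and cluster d held 2, and no gene of cluster b or c was on. hoxd1 and hoxa7 were on in all 6 groups, and hoxd9 in VEG and whole embryos. The count was thus 2 in AC, 2 in DMZ, 2 in LMZ, 2 in VMZ, 3 in VEG and 3 in whole embryos. In whole embryos hoxd9 was on through clutch 1, with 1.36 TPM against 0.71 TPM in clutch 2. In VMZ of clutch 1 hoxa7 had 0.93 TPM. With at least 1 TPM asked of each replicate, 2 genes were on in whole embryos. Scored on clutch 1 alone, 8 genes would be on, with hoxa2, hoxb3, hoxc3, hoxd8 and hoxd13 added, whereas clutch 2 alone gave the same 3 genes.

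The genes that were not on were mostly at or near 0. Of the 37, hoxa4, hoxa5, hoxa6, hoxa9, hoxa10, hoxa11, hoxa13, hoxb5, hoxb8, hoxb9, hoxc4, hoxc5 and hoxd11 (13 genes) held at most 3 counts in every library, and their highest single values lay between 0.07 and 0.35 TPM. In all, 27 genes were detected in no group. By paralogue group, 5 of the 12 genes of groups 1 to 4 were detected in some group, 1 of the 11 genes of groups 5 to 8 and 4 of the 14 genes of groups 9 to 13, and each of the 3 sets held 1 gene that was on. Of the genes that were not on, 5 reached 1 TPM in at least 1 library, each time in clutch 1: hoxa2 in VMZ, hoxb3 in VEG and whole embryos, hoxc3 in AC and VMZ, hoxd8 in VEG and hoxd13 in AC. hoxd13, a 5′ gene known from limb and genital development, had 17 counts in AC and 9 in whole embryos of clutch 1 and at most 3 counts in each of the other 10 libraries. For the 13 genes that never exceeded 3 counts, a low level cannot be told from none at this depth.

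**Figure D1:**
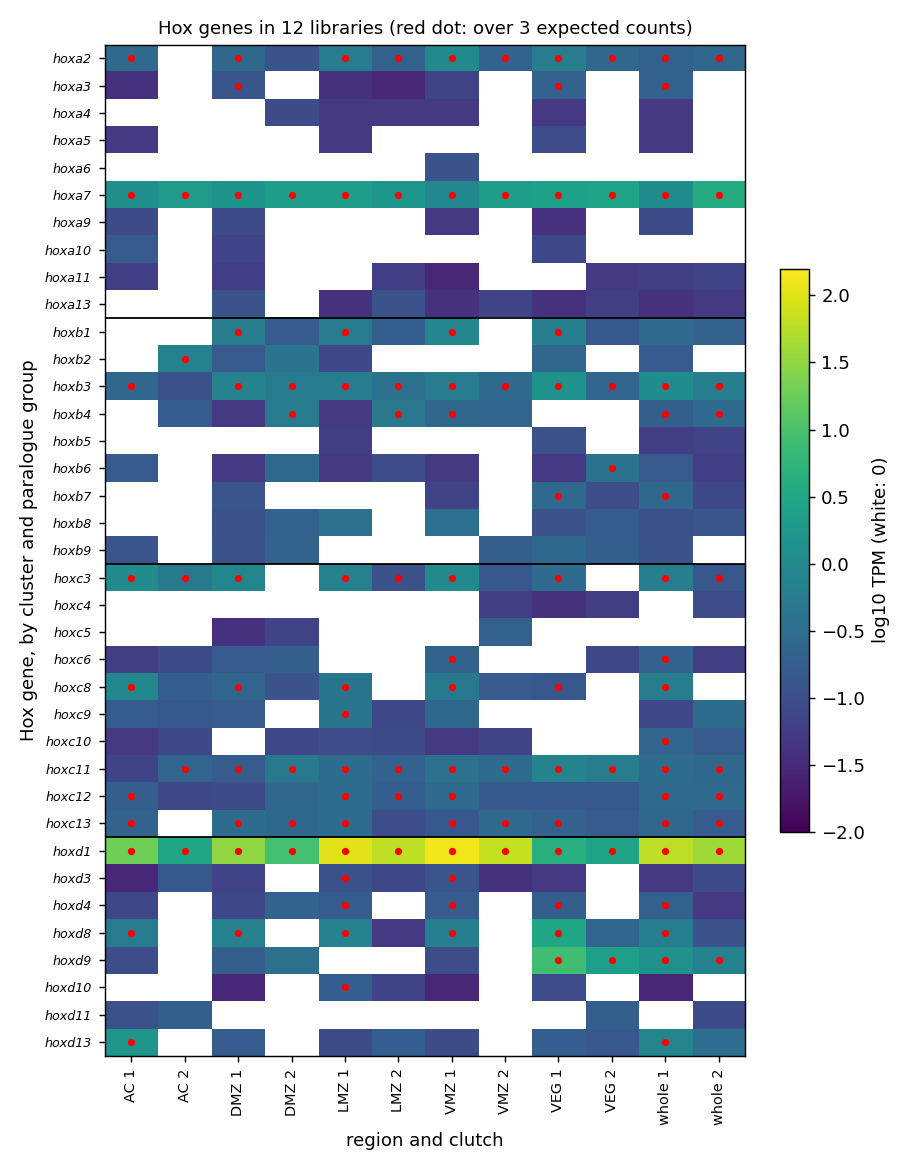
Level of each of the 37 Hox genes (rows, by cluster a to d and by paralogue number) in the 12 libraries (columns, by group and clutch), with colour giving log10 TPM, white marking 0 TPM and a red dot marking more than 3 expected counts. The rows of hoxd1 and hoxa7 carry a dot in every library, hoxd9 in VEG and whole embryos only, and 13 rows carry none.

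The RefSeq annotation (assembly UCB_Xtro_10.0, used here for names and gene order only) lists 35 of the 37 symbols and places each cluster on a single chromosome. In it hoxd1 lies at the 3′ end of cluster d, and evx1, an even-skipped homologue, follows hoxa13 at the 5′ end of cluster a. Little mRNA came from the 5′ Hox genes of cluster a: between hoxa7 and evx1, the genes hoxa9, hoxa11 and hoxa13 held at most 3 counts in every library. hoxd9 and hoxd8 are successive Hox genes of cluster d. In RefSeq the span of hoxa3 also covers or meets those of hoxa4 to hoxa9, that of hoxb3 those of hoxb4 to hoxb6, and that of hoxd3 that of hoxd4. Whether the v9.0 models behind the counts overlap in the same way was not examined, and the libraries were not stranded.

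hoxd1 (Xetrov90024227) carried most of the Hox mRNA, as TPM, outside VEG and AC of clutch 2. This 3′ gene is known in Xenopus as an early mesodermal gene that responds to retinoic acid and Wnt signals. It supplied 71.1% and 40.4% of the TPM summed over the 37 genes in AC of clutches 1 and 2, 81.4% and 55.9% in DMZ, 92.4% and 93.4% in LMZ, and 93.8% and 93.6% in VMZ. In VEG it supplied only 17.7% and 24.3%, and in whole embryos 85.95% and 82.4%. The sum was highest in VMZ, at 134.7 and 71.4 TPM, and lowest in VEG of clutch 1 and AC of clutch 2, at 23.99 and 7.55 TPM. Without hoxd1 the sums spanned 4.38 to 19.8 TPM over the 12 libraries, and in clutch 1 the highest was VEG.

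The level of hoxd1 was 126.4 and 66.8 TPM in VMZ and 104.2 and 61.98 TPM in LMZ, for clutches 1 and 2. It was 32.4 and 8.67 TPM in DMZ, and 18.9 and 3.05 TPM in AC. VEG had the lowest values, 4.24 and 2.66 TPM, and whole embryos had 60.6 and 39.5 TPM. Both clutches gave the order VMZ, LMZ, DMZ, AC and VEG, and the libraries of VMZ and LMZ overlapped each other but lay above every library of DMZ, AC and VEG. The means were 96.6 ± 42.1 TPM in VMZ, 83.1 ± 29.8 in LMZ, 20.5 ± 16.8 in DMZ, 10.96 ± 11.2 in AC, 3.45 ± 1.12 in VEG and 50.04 ± 14.9 in whole embryos (SD, n = 2 each). Within each clutch the VMZ value was 29.8 and 25.1 times that in VEG, and 3.90 and 7.71 times that in DMZ.

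**Figure D2:**
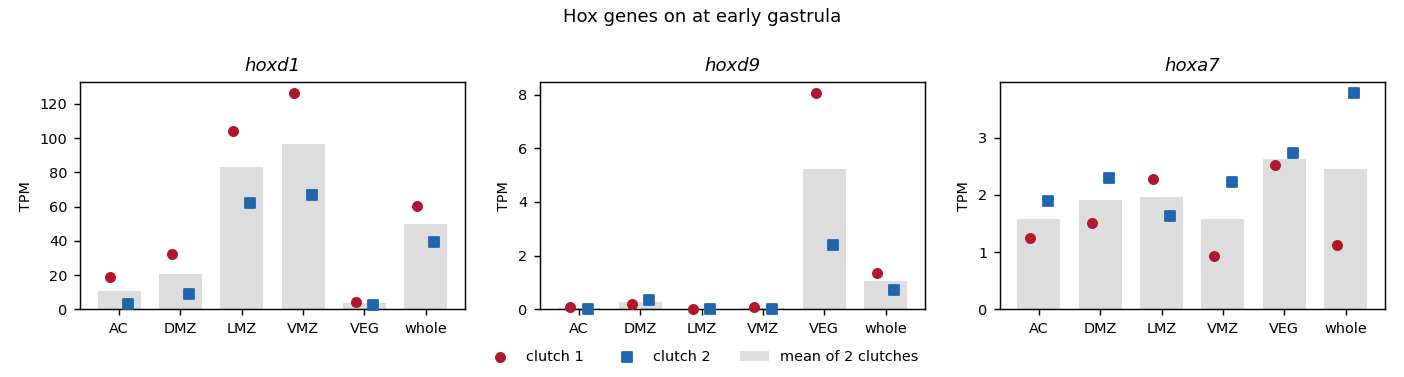
TPM (vertical axis, from 0, with its own scale in each panel) of the 3 Hox genes that were on, by region and in whole embryos. Red circles are clutch 1, blue squares clutch 2 and grey bars the mean of the 2 clutches. hoxd1 peaks in LMZ and VMZ, hoxd9 stands out in VEG at 8.06 and 2.38 TPM, and hoxa7 lies between 0.93 and 3.78 TPM throughout.

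The 5 regions were compared by edgeR's quasi-likelihood test on expected counts, each region against the mean of the other four, with Benjamini-Hochberg adjustment over the 15727 genes tested. The filter on low counts was cleared by 10 of the 37 Hox genes: hoxa2, hoxa7, hoxb3, hoxb4, hoxc3, hoxc8, hoxc11, hoxd1, hoxd8 and hoxd9. hoxd9 cleared it through its VEG libraries. hoxa2, hoxc8 and hoxd8 cleared it through clutch 1, hoxc3 mainly through clutch 1 and hoxb4 through clutch 2. The number called among the 10 therefore does not describe Hox genes in general and is not read against the share of all genes. In VEG hoxd9 was called as higher and hoxd1 as lower, where 9.53% of all tested genes were called, 5.64% higher and 3.89% lower, and the 2 became 0 without VEG of clutch 1 and 1 (hoxd9) without VEG of clutch 2, without any single LMZ or VMZ library, or without TMM normalization. None was called in AC, DMZ, LMZ or VMZ, where 2.62%, 0.432%, 0% and 0.00636% of tested genes were called. At an unadjusted p below 0.05 there were 0 Hox genes in AC and 0 in DMZ. In LMZ there were 2, hoxd1 as higher and hoxd9 as lower, and hoxd9 had 0 counts in both LMZ libraries. In VMZ there was 1, hoxd1 as higher. These unadjusted counts are not read against a share of all genes. Under limma on log2(TPM + 1) or log2(TPM + 0.1) none was called in these 4 regions, and DESeq2 called hoxd1 as higher in LMZ and in VMZ. With the clutch added to the edgeR model as a block, hoxd1 was called as higher in LMZ and in VMZ and as lower in AC. In LMZ, VMZ and AC 0.808%, 0.973% and 15.0% of tested genes were then called. The fit with no block leaves out that same-numbered libraries deviated together (correlations 0.663 to 0.826 over 15 pairs of groups). For hoxd1 the SE was 0.53 in VMZ and 0.54 in LMZ without the block, and 0.28 in each with it. A missing call without the block is therefore not read as a lack of difference.

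hoxd1 was lower in VEG than in the mean of the other four regions by a log2 fold change of -3.49 (SE 0.79, adjusted p = 0.0358), in 2 of 2 clutches. Because hoxd9 cleared the filter through VEG, the numbers called between pairs of regions are likewise not read against the share of all genes. Over the 10 pairs of regions, 2 Hox genes (hoxd1 and hoxd9) were called in at least 1 pair, where 8.48% of tested genes were called, and 6 with the block, where 46.1% were. Without any single DMZ, VMZ or VEG library that count was 0, and without any single AC or LMZ library it was 1. For hoxd1 the largest pairwise gaps were VEG over VMZ at -4.89 (SE 0.91, adjusted p = 0.0466) and VEG over LMZ at -4.66 (SE 0.90, adjusted p = 0.0444), pairs in which 2.17% and 2.99% of tested genes were called. The call of VEG against the rest was lost without either library of LMZ, VMZ or VEG, with adjusted p between 0.0623 and 0.242, and scaling by library size without TMM normalization gave 0.0508. The 2 pairwise calls were lost without any single library outside AC, without TMM normalization (adjusted p = 0.064 and 0.0613) and under limma on log2(TPM + 0.1) (adjusted p = 0.0553 and 0.0568). For hoxd1 in VMZ the log2 fold change over the mean of the other four was 2.62 (SE 0.53, adjusted p = 0.431), and 2.68 with the clutch as a block (adjusted p = 0.00747). For LMZ it was 2.34 (SE 0.54, adjusted p = 1), and 2.46 with the block (adjusted p = 0.0136). For AC it was -1.32 (SE 0.67, adjusted p = 0.658), and -1.42 with the block (adjusted p = 0.0458). The blocked calls in VMZ and LMZ were lost without either VEG library or either library of the region itself, with adjusted p between 0.087 and 0.332, and the blocked VEG call was lost without VEG of clutch 1 (adjusted p = 0.0546). The blocked AC call held only without AC of clutch 1, DMZ of clutch 2 or LMZ of clutch 1, and was lost without any other library, with adjusted p between 0.0601 and 0.17.

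Among neighbours in the order of hoxd1 levels, VMZ over LMZ had a log2 fold change of 0.22 (SE 0.76, adjusted p = 1). LMZ over DMZ was 1.99 (SE 0.79, adjusted p = 1) and 2.14 with the block (SE 0.41, adjusted p = 0.133), and DMZ over AC was 0.94 (SE 0.78, adjusted p = 1). VEG over AC was -1.74 (SE 0.81, adjusted p = 0.275), and -1.67 with the block (SE 0.50, adjusted p = 0.0348). No neighbouring pair thus passed the test over all 10 region libraries, and with the block only VEG and AC did. Among pairs further apart, the block added calls of VMZ over AC at 3.28 (adjusted p = 0.00687) and LMZ over AC at 3.10 (adjusted p = 0.00955). It also added VEG over DMZ at -2.63 (adjusted p = 0.00653), a pair in which 33.3% of tested genes were called. Across the dorsoventral axis, VMZ over DMZ was 2.21 (SE 0.80, adjusted p = 1) and 2.32 with the block (SE 0.41, adjusted p = 0.0543), which missed the threshold although the ratio exceeded 3 in both clutches. Only 0.0445% of tested genes were called between VMZ and DMZ.

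The AC value of hoxd1 moved most between clutches as a ratio (6.18, clutch 1 over clutch 2), though not in TPM. It was 21.5% of the mean of the 3 marginal zones in clutch 1 and 6.66% in clutch 2. The same share for t (brachyury), the pan-mesodermal T-box gene, was 4.76% and 2.17%, for mixer, an endodermal homeobox gene, 3.05% and 1.34%, and for vegt, the vegetally localized T-box gene, 9.80% and 3.39%. For cdx4 it was 15.6% and 5.22%, for cdx2 12.1% and 4.62%, and for cdx1 19.5% and 6.80%. It differed less between the clutches for evx1, at 5.71% and 4.77%, and for hes6.1, at 42.01% and 41.6%. Some but not all transcripts of marginal and vegetal tissue were thus also more plentiful in AC of clutch 1 than in AC of clutch 2. The share of hoxd1 was above that of t, mixer and vegt in both clutches, but below that of hes6.1 in both and of cdx1 in clutch 2. Whether carried-over marginal tissue contributed to hoxd1 in AC was not tested. Fewer expressing cells and less RNA per cell cannot be told apart in such pooled explants.

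hoxd9 (Xetrov90024220), a gene of the 5′ part of cluster d known from later axial and limb patterning, was found mainly in VEG. It had 8.06 and 2.38 TPM in VEG, on 82.1 and 16 counts. It had 0.19 and 0.35 TPM in DMZ, 0.1 and 0 TPM in AC, 0.1 and 0 TPM in VMZ and 0 TPM in both LMZ libraries, with at most 2 counts in each of these 8 libraries, and 1.36 and 0.71 TPM in whole embryos. Both VEG libraries lay above every other library of a region and above both whole-embryo libraries. Taken as a share of library counts, with 3 counts set for each other region library, the lowest ratio of VEG was 26.1 in clutch 1 and 4.71 in clutch 2. These ratios leave out the counting error of VEG itself. hoxd9 passed the filter on low counts through VEG, the region in which it was high, so a test on the filtered genes is not independent of that difference. The test of VEG against the mean of the other four gave adjusted p = 0.00569, higher in 2 of 2 clutches, and 0.00173 with no filter. The call was lost without VEG of clutch 1 (adjusted p = 0.0571). Against single regions the adjusted p was 0.0393 for AC, 0.0438 for LMZ, 0.0774 for VMZ and 0.123 for DMZ, and with the block 0.00246 for VMZ and 0.00481 for DMZ. Between VEG and AC 8.04% of tested genes were called, and with the block 25.4% were between VEG and VMZ and 33.3% between VEG and DMZ. Leaving out any library lost the call against LMZ, and any library outside LMZ that against AC, which was also lost with only the libraries of VEG and AC in the fit (adjusted p = 0.0946).

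sox17a, an endodermal TF, was likewise highest in VEG, at 1233 and 1470 TPM, with 260.2 and 194.3 TPM in DMZ and 192.8 and 115.5 TPM in VMZ. The few counts of hoxd9 outside VEG do not allow its spread over the regions to be set against that of sox17a. evx1, at the far end of cluster a, was on in VEG at 14.9 and 12.4 TPM but was higher still in VMZ, at 29.1 and 34.6 TPM. evx2, which RefSeq places beyond hoxd13 at the 5′ end of cluster d, was at most 0.65 TPM in any library. hoxd10, the next Hox gene beyond hoxd9 in RefSeq, reached at most 0.18 TPM.

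hoxd8 (Xetrov90024222), the Hox gene next to hoxd9, was also highest in VEG, but almost wholly in clutch 1. It had 2.96 TPM in VEG of clutch 1 on 59 counts and 0.23 TPM in VEG of clutch 2 on 3 counts. In the other regions it had 0.52 to 0.73 TPM in clutch 1 and 0 to 0.05 TPM in clutch 2, and whole embryos had 0.64 and 0.12 TPM. VEG of clutch 1 thus lay above all other libraries, while VEG of clutch 2 lay below every library of clutch 1. VEG against the mean of the other four was not called (adjusted p = 0.446) and was called with the clutch as a block (fitted log2 fold change 2.25, adjusted p = 0.00434), as were 42.6% of tested genes. Without VEG of clutch 1 the estimate was -0.49 with no block, and 3.19 with the block (adjusted p = 0.11), so the call rests on that library.

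hoxa7 (Xetrov90015903), a trunk gene of the middle of cluster a, was on everywhere, and no region passed the test. It had 2.53 and 2.73 TPM in VEG, 0.93 and 2.23 TPM in VMZ, 2.28 and 1.63 TPM in LMZ, 1.51 and 2.3 TPM in DMZ and 1.24 and 1.9 TPM in AC, against 1.12 and 3.78 TPM in whole embryos. The groups overlapped, except that both VEG values exceeded those of the other regions. VEG over the mean of the other four was 0.46 on the log2 scale (SE 0.44, adjusted p = 0.647). The expected counts of hoxa7 were more than 0.005 from a whole number in 12 of 12 libraries, as RSEM gives where reads are shared between models, and its level is uncertain on that account.

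The remaining weakly detected genes are given by cluster. In cluster b, hoxb3 was highest in VEG and whole embryos of clutch 1, at 1.36 and 1.11 TPM, and was detected in DMZ, LMZ, VMZ, VEG and whole embryos, while hoxb4 was detected in whole embryos and stayed at or below 0.51 TPM in every library. In cluster c, hoxc11 was detected in the same 5 groups as hoxb3 and was highest in VEG of both clutches, at 0.75 and 0.59 TPM, on expected counts that were not whole in 8 of 12 libraries. hoxc3, hoxc12 and hoxc13 were the other cluster c genes detected in some group, at no more than 1.06, 0.29 and 0.3 TPM. In cluster a, hoxa2, a hindbrain and neural crest gene, was detected in LMZ, VMZ, VEG and whole embryos and was highest in VMZ of clutch 1 at 1.01 TPM. No contrast of a region against the other four called hoxa2, hoxb3, hoxb4, hoxc3, hoxc8 or hoxc11, with or without the block. Between pairs of regions, the block added VEG over AC calls for hoxb3 and hoxd8, higher, and for hoxc3 and hoxc8, lower. Between VEG and AC 40.6% of tested genes were then called. With the block hoxd8 was also called as higher in VEG than in DMZ (adjusted p = 0.0364) and in VMZ (adjusted p = 0.04). Of tested genes, 33.3% and 25.4% were called in these comparisons. hoxb3 had 1.36 and 0.23 TPM in VEG against 0.25 and 0.11 TPM in AC. In clutch 2 that was 5 counts in VEG and 2 in AC, and VEG lay below DMZ, LMZ and VMZ. hoxc3 had 0.29 and 0 TPM in VEG against 1.06 and 0.5 TPM in AC, and hoxc8 had 0.14 and 0 TPM in VEG against 0.93 and 0.18 TPM in AC.

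More Hox genes were seen in clutch 1. Between 10 and 18 Hox genes exceeded 3 counts per library in clutch 1, and between 5 and 10 in clutch 2. After scaling all libraries to the smallest total the ranges were 9 to 13 and 5 to 8, and clutch 1 had the higher number in 6 of 6 groups, both before and after scaling. The same held over all gene models, of which 61.9% to 63.3% exceeded the floor per library of clutch 1 and 56.2% to 60.1% of clutch 2, and clutch 1 was higher in 6 of 6 groups before and after scaling. After scaling, 10 Hox genes exceeded the floor in more libraries of clutch 1 than of clutch 2 and 4 in fewer, 27% and 10.8% of the 37, beside 10.9% and 6.73% of all gene models. Before scaling the numbers were 17 and 4, or 45.9% and 10.8%, beside 16.2% and 4.82%. These shares are not matched for expression level, and their difference was not tested. The clutch cannot be told apart from anything else that differed between the 2 dissections.

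**Figure D3:**
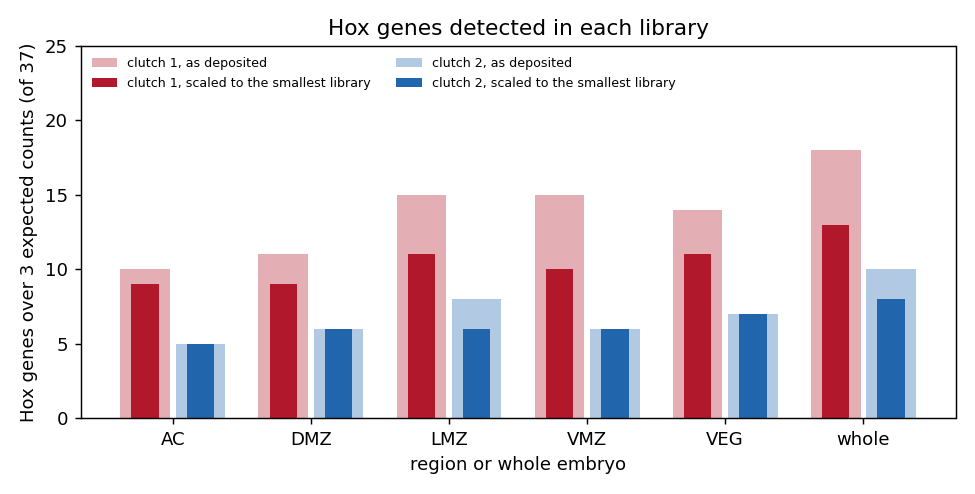
Number of Hox genes (of 37) with more than 3 expected counts in each library, by group, with clutch 1 in red and clutch 2 in blue. Wide pale bars use the deposited counts and narrow dark bars the counts scaled to the smallest library. The bars of clutch 1 are the taller ones in every group.

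All libraries of a clutch share that clutch. The p-values and SEs between clutches therefore measure steadiness across libraries and not the spread between clutches. With the group as a covariate over all 12 libraries, edgeR called 5 of the 10 tested Hox genes as higher in clutch 1 than in clutch 2 (hoxa2, hoxc3, hoxc8, hoxd1 and hoxd8) and 2 as lower (hoxa7 and hoxb4). Over all 15848 tested genes 65.9% were called, 34.0% higher and 31.9% lower. hoxa2, hoxc8 and hoxd8 passed the filter on low counts through clutch 1, hoxc3 mainly through clutch 1 and hoxb4 through clutch 2. In each case that was the clutch in which the gene was higher. Tests of these genes are thus not independent of the difference, and the number called is not read against the share of all genes. hoxd1 was 0.88 higher on the log2 scale in clutch 1 (SE 0.25, adjusted p = 0.0152), in 6 of 6 groups. hoxd8, which passed the filter through clutch 1, was higher in clutch 1 in 6 of 6 groups (adjusted p = 0.000112, and 3.17e-05 with no filter). With 3 counts set for the library of clutch 2, the ratio of clutch 1 to clutch 2 was 11.5 in VEG and 1.85 in AC. VEG of clutch 2 did hold 3 counts, so 11.5 is the observed ratio and not a lower bound. hoxc3 had 1.06, 0.86, 0.7, 1.03, 0.29 and 0.62 TPM in AC, DMZ, LMZ, VMZ, VEG and whole embryos of clutch 1, against 0.5, 0, 0.11, 0.14, 0 and 0.14 TPM in clutch 2 (log2 fold change 2.23, SE 0.48, adjusted p = 0.00171). Each group was thus higher in clutch 1, and the ranges overlapped only through AC of clutch 2.

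hoxc8 had 0.93, 0.23, 0.43, 0.49, 0.14 and 0.61 TPM in AC, DMZ, LMZ, VMZ, VEG and whole embryos of clutch 1, against 0.18, 0.12, 0, 0.16, 0 and 0 TPM in clutch 2 (log2 fold change 2.51, SE 0.65, adjusted p = 0.00548). It was higher in clutch 1 in 6 of 6 groups. hoxb4 went the other way, with 0, 0.05, 0.05, 0.24, 0 and 0.19 TPM in the same order in clutch 1, against 0.17, 0.51, 0.47, 0.23, 0 and 0.29 TPM in clutch 2 (log2 fold change -1.88, SE 0.71, adjusted p = 0.0379). It was lower in clutch 1 in 4 of 6 groups. hoxa2 had 0.28, 0.26, 0.59, 1.01, 0.57 and 0.2 TPM in clutch 1, against 0, 0.12, 0.2, 0.21, 0.25 and 0.24 TPM in clutch 2 (log2 fold change 1.15, adjusted p = 0.0484). Whole embryos were its only group not higher in clutch 1. hoxa7 was lower in clutch 1 in 5 of 6 groups (log2 fold change -0.87, SE 0.26, adjusted p = 0.0118), LMZ being the exception. The hoxd1 call was lost without either VEG library (adjusted p = 0.0614), that of hoxa2 without any library but those of whole embryos, and that of hoxb4 without any library of AC, DMZ, LMZ or whole embryos. DESeq2 did not call hoxa2 (adjusted p = 0.0958) or hoxb4 (adjusted p = 0.0614), nor did edgeR with no filter (adjusted p = 0.0562 and 0.058). limma on log2(TPM + 1) did not call hoxb4 (adjusted p = 0.0588), and limma did not call hoxa7 (adjusted p = 0.0702 on log2(TPM + 1) and 0.0701 on log2(TPM + 0.1)). hoxb3 was higher in clutch 1 in 6 of 6 groups but was not called by edgeR (adjusted p = 0.0561) or DESeq2 (adjusted p = 0.137). It was called by edgeR without TMM (adjusted p = 0.0256). limma also called it, on log2(TPM + 1) (adjusted p = 0.0221) and on log2(TPM + 0.1) (adjusted p = 0.0175).

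**Figure D4:**
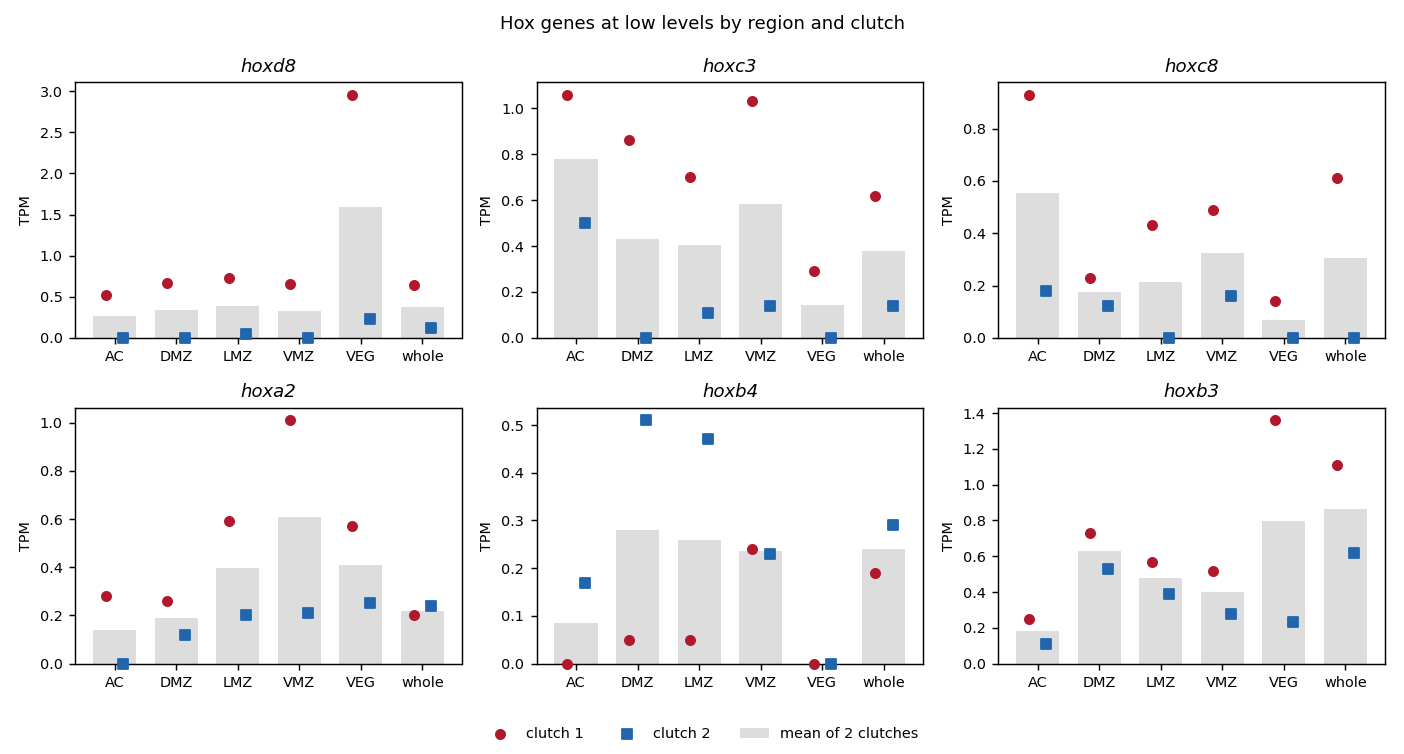
TPM (vertical axis, from 0, with its own scale in each panel) of 6 Hox genes at low levels by region and in whole embryos, with clutch 1 as red circles, clutch 2 as blue squares and the mean of the 2 clutches as grey bars. hoxd8, hoxc3 and hoxc8 are higher in clutch 1 in every group, and hoxb4 is lower in clutch 1 in 4 of 6 groups.

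The 5 TFs whose regional pattern was most like that of hoxd1 were hes6.1, cdx4, LOC100495414, hes9.1 and cdx2. Likeness was Pearson's r of log2(TPM + 1) over the 10 region libraries, centred within each clutch, among 556 other named TFs with at least 10 TPM in some library. The values of r were 0.98 for hes6.1, 0.98 for cdx4, 0.97 for LOC100495414, 0.97 for hes9.1 and 0.95 for cdx2, and they describe libraries that share their tissue pieces and depth. cdx4 had 131.3 and 97.8 TPM in VMZ, 102.4 and 66.2 TPM in LMZ, 37.3 and 23.9 TPM in DMZ, 14.1 and 3.27 TPM in AC and 4.82 and 2.82 TPM in VEG, the same order as hoxd1. Its levels were also near those of hoxd1, but less so in DMZ and VMZ of clutch 2, where hoxd1 had 8.67 and 66.8 TPM. In whole embryos of clutch 1 cdx4 had 33.7 TPM and hoxd1 60.6 TPM. hes6.1, a bHLH repressor of the Hairy/Enhancer of split family, was less steep, with 206.2 and 226.1 TPM in VMZ but still 63.3 and 71.6 TPM in AC. hes9.1 was the only gene of the 5 that was highest in LMZ in a clutch, clutch 1, at 14.98 TPM there.

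**Figure D5:**
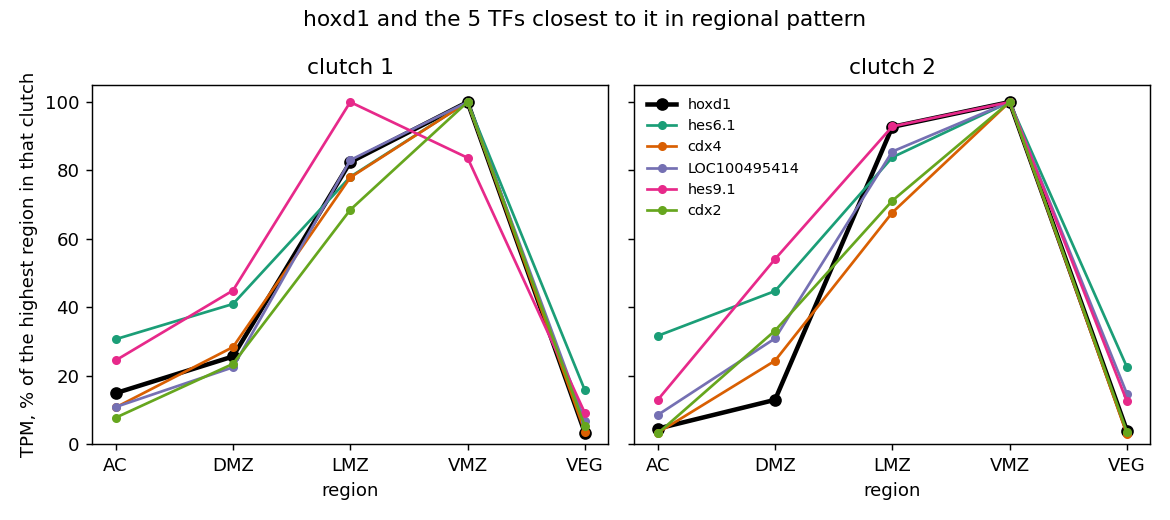
TPM of hoxd1 (black) and of the 5 TFs closest to it in pattern (colours) in the 5 regions, each given as a percentage of its own highest region, with clutch 1 in the left panel and clutch 2 in the right. All 6 lines run low in AC and VEG and high in LMZ and VMZ.

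Genes that act with or upstream of Hox genes, read together with the Evx and ParaHox genes, were on at about the rate of TFs in general. A list of 21 such genes with a model was read, comprising cofactor genes of the Pbx, Meis and Pknox families, the Cdx, Evx and ParaHox genes and the retinoic acid and retinoid X receptors. Of these, 14 were on in some group and 11 in all 6 groups, where 69.8% and 56% of the 1197 TFs were. The genes on in no group were evx2, gsx1, gsx2, pdx1, meis1, meis2 and rarb, so most of the Evx and ParaHox genes were off. The rate of the list is thus not that of its cofactor and regulator genes alone. Among the genes that were on, pbx3 and pknox2 were so through clutch 1, with at most 0.76 and 0.91 TPM in clutch 2. Among the 15 genes of the list that were tested, 1 was called as higher in VEG than in the other four regions (evx1). A further 4 were called as lower (cdx2, cdx4, meis3 and pbx2). Over all tested genes 5.64% were called there as higher and 3.89% as lower. The median log2 fold change there was -0.16 over the 15 genes, beside 0.02 over all tested genes. evx1 was also lower in AC and in DMZ, and was higher in VMZ by 3.46 (SE 0.24, adjusted p = 0.021), the only gene of the 15727 called there by edgeR with no block. That VMZ call was lost without any single library but LMZ of clutch 2 (adjusted p between 0.0521 and 0.483) and under limma (adjusted p = 0.0661 and 0.0633), the DMZ call without 8 of the 10 libraries and the AC call without either AC library (adjusted p = 0.082 and 0.0648). Without either VEG library 2 genes of the list were called in some region, against 5 with all libraries. With all libraries 10.1% of all tested genes were called in at least 1 region. The VEG call of meis3 held without each library in turn, those of cdx2 and cdx4 were lost without either VEG library (adjusted p between 0.057 and 0.156), that of evx1 without VEG of clutch 2 (adjusted p = 0.0592), and that of pbx2 without 8 of the 10 libraries (adjusted p between 0.0531 and 0.188).

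The cofactor genes meis3 and pbx2 were lower in VEG. meis3 had 12.9 and 14.8 TPM in VEG, against 77.3 and 71.8 TPM in AC, 61.95 and 62.2 TPM in DMZ, 76.3 and 59.8 TPM in LMZ and 56.5 and 28.1 TPM in VMZ (log2 fold change -2.23, SE 0.27, adjusted p = 0.00402). pbx2 had 89.6 and 97.8 TPM in VEG, against 125.3 to 193.3 TPM over the other region libraries (log2 fold change -0.92, SE 0.20, adjusted p = 0.0318). For both genes the VEG values lay below the range of the other region libraries. The receptor gene rarg was on at 82.2 to 199.2 TPM in every library, whereas rarb stayed at or below 0.66 TPM.

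cdx2 and cdx4, the Cdx genes that share the hoxd1 pattern, were lower in VEG by log2 fold changes of -2.95 (SE 0.56, adjusted p = 0.0194) and -3.50 (SE 0.54, adjusted p = 0.0093). cdx1 differed from them in keeping 23.97 and 33.3 TPM in VEG, against 9.19 and 2.63 TPM in AC, and was not called in VEG. The ParaHox genes gsx1, gsx2 and pdx1, which descend with the Hox genes from a common ancestral cluster, were at 0.48 TPM or below in every library. With the clutch as a block, 9 of the 15 tested genes of the list were called in at least 1 region, against 5 without it, where 44.5% and 10.1% of all tested genes were called. In VMZ the block called 153 genes as different, 0.973% of those tested. Among them evx1, cdx1, cdx2 and cdx4 were higher by 3.42, 2.18, 2.73 and 2.79 (adjusted p = 3.68e-05, 0.0368, 0.00313 and 0.00296). DESeq2 called the same 4 genes of the list in VMZ, and limma called none.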

How the data were processed

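RNA-seq (50-bp single-end reads of non-stranded polyA+ libraries) was read from 12 libraries. Per the labels and the methods of the study, the authors estimated expected counts and TPM per gene with RSEM 1.2.12 on the v9.0 gene models and deposited both tables. Expected counts were rounded and tested with edgeR 4.0.16 (TMM, filterByExpr, quasi-likelihood, adjusted p below 0.05), over 10 region libraries by region and over 12 by clutch and group. TPM served for levels, the on rule and, with a pseudocount of 1 or 0.1, for limma 3.58.1. DESeq2 1.42.0, a replicate block, no TMM, no filter and each library left out were alternatives, and the block with a library left out was added after seeing the data. Replicate numbers were taken as clutches, and same-numbered libraries deviated together (correlations 0.663 to 0.826 over 15 pairs of groups). The low-count floor of 3 covers counting error only. Named Hox genes were those on in some group or called in a contrast of 1 region with the other four or of the clutches, and the 5 genes most like hoxd1 were chosen as stated. Members and lists were chosen with earlier results of these data known. The scripts were tested on simulated data. 1 Hox gene and 1 gene of the cofactor list are not reported here. The authors' own test results were not used.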

Additional observations from a re-analysis of the deposited data

How the results depend on the processing

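The count of 3 Hox genes on became 7 at a mean of at least 0.5 TPM, and ran between 3 and 8 when either replicate was left out. The 2 genes called for a region against the other four became 1 with library sizes in place of TMM and ran between 0 and 2 with each library left out. With the replicate block 3 genes were called, and between 1 and 5 with the block and each library left out, among them 4 without AC of clutch 1, VEG of clutch 2 or VMZ of clutch 2. The 2 genes called between pairs of regions became 6 with the replicate block, 1 without TMM and 1 under limma on log2(TPM + 0.1), and ran between 0 and 1 with each library left out. The 7 genes called between clutches ran between 5 and 6 with each library left out. Under the other settings they ran between 5 (DESeq2) and 8 (without TMM). Of the 7, hoxa2, hoxc3, hoxc8, hoxd8 and hoxb4 passed the filter wholly or mainly through the clutch in which they were higher. Over all tested genes 65.9% were called between clutches. In at least 1 region 10.1% were called, and 44.5% with the block. In at least 1 pair of regions 8.48% were, and 46.1% with the block. hoxd9 passed through VEG, and none of these counts of Hox genes is read against those shares. The 5 called genes of the list of cofactors and regulators ran between 2 and 5 with each library left out. The list reached 9 with the block. Of 569 alternatives for single Hox genes, 446 kept direction and call, 45 crossed into a call, 75 out of it and 3 changed sign, each of these with a library left out. The log2 fold changes of those 3 ran between -0.17 and 0.53 for hoxd1 in VMZ over LMZ, between -0.0851 and 2.58 for hoxd1 in DMZ over AC, and between -0.49 and 3.48 for hoxd8 in VEG over the other four. Depth limits every gene under about 1 TPM, above all in clutch 2, whose AC, DMZ, VEG and VMZ libraries were the smallest of the 12.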
